A study of Mus musculus with 188 samples.

Results

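C3H/HeJ and C57BL/6J are inbred mouse strains that differ in diet-induced atherosclerosis, C57BL/6J being the classical susceptible strain and C3H/HeJ a resistant one. The comparison takes the aorta of both strains on chow, without an atherogenic diet. It rests on 5 arrays of 188: 2 of C3H/HeJ and 3 of C57BL/6J, chosen by the strain label alone. All were from wild-type males aged 16 weeks that received chow and no treatment. The other arrays came from males of the same age in further inbred and recombinant inbred strains, 94 strains in all. Among them, the labels BXD29-Tlr4<lps-2J>/J and BXD24/TyJ-Cep290<rd16>/J name mutant alleles of Tlr4 and Cep290. The arrays of both lines are in the fit that sets the spread. RNA had been copied and labelled from an oligo-dT primer and hybridised to Affymetrix HT_MG-430A arrays, and each value below is a log2 expression level of 1 probe set, so that a difference of 1 is a doubling of signal. The labels do not state whether 1 animal or several gave the RNA of a strain, so the p-values measure only the spread between arrays, which may be technical.

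An inbred strain carries the same allele on both copies of every chromosome, so a transcript whose level depends on a local DNA variant differs between strains in every animal. The BXH recombinant inbred strains descend from crosses of C57BL/6J and C3H/HeJ that were then inbred, and each holds a fixed mosaic of the parents' chromosomes. A transcript set by 1 locus takes, in each BXH strain, the level of one parent or of the other. In the artery wall, lesions start when apolipoprotein B particles lodge in the intima and monocytes enter, become macrophages and load cholesterol, which they export to apolipoproteins. C3H/HeJ is also known for a missense allele of Tlr4, the endotoxin receptor, which leaves it hyporesponsive to endotoxin.

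The labelled tissue was checked first. Acta2, the smooth muscle actin of the media, measured 12.07 and 12.57 in C3H/HeJ and 12.91, 12.71 and 12.49 in C57BL/6J. Ucp1, the uncoupling protein of brown fat, was also well expressed, at 12.76 and 12.71 in C3H/HeJ and 12.84, 12.63 and 12.62 in C57BL/6J, and the groups overlapped. A defining gene of brown fat was thus measured beside that of the vessel wall in all 5 arrays, with no separation of the strains. In bulk tissue, fewer cells of a type and less RNA per cell cannot be told apart.

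The C57BL/6J arrays were not alike. Across all 22327 probe sets, C57BL/6J replicate 3 correlated at 0.98 with both C3H/HeJ arrays, and C57BL/6J replicate 2 at 0.92 with them and at 0.93 with replicate 3. Replicates 1 and 2 of C57BL/6J carry array numbers 927 and 928, next to 939 and 940 of C3H/HeJ, whereas replicate 3 carries 1115. The log2 difference between the 3′ and 5′ control probe sets of Gapdh, a measure of RNA integrity, was 0.32 and 0.36 in C57BL/6J replicates 1 and 2, 0.12 in replicate 3, and 0.16 and 0.096 in C3H/HeJ, within 0.00049 to 1.41 over all 188 arrays. That of beta-actin was 1.47 and 1.18 in C3H/HeJ and 1.62, 1.57 and 1.60 in C57BL/6J, within 0.91 to 2.73, so that the strains did not overlap and replicate 3 lay with C57BL/6J. The score of the skeletal muscle genes, the mean of members centred over all arrays, was 1.52 and 0.26 in C3H/HeJ and -3.03, -2.82 and 0.16 in C57BL/6J. All 14 skeletal muscle genes were higher in the C3H/HeJ mean, with a median difference of 3.14, and none passed the test (limma). The part of these features in the results was not tested.

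With 2 arrays against 3, the smallest two-sided p of an exact permutation test is 0.2. The contrast was therefore taken from a limma fit to 177 arrays of 84 strains, which share an estimate of the spread. At a Benjamini-Hochberg adjusted p below 0.05, 278 of 22327 probe sets (1.25%) differed, 114 higher (0.511%) and 164 lower (0.735%) in C3H/HeJ, beside 2906 at an unadjusted p below 0.05. With 1 probe set per gene, the brightest over all arrays, 150 of 11725 genes (1.28%) differed. Of these, 64 (0.546%) were higher and 86 (0.733%) lower in C3H/HeJ. None of the 150 had overlapping arrays. They were selected on these same arrays, so this gives no separate support for the calls. Of all genes, 13.7% had every C3H/HeJ array above and 16.5% every C3H/HeJ array below the C57BL/6J arrays.

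**Figure D1:**
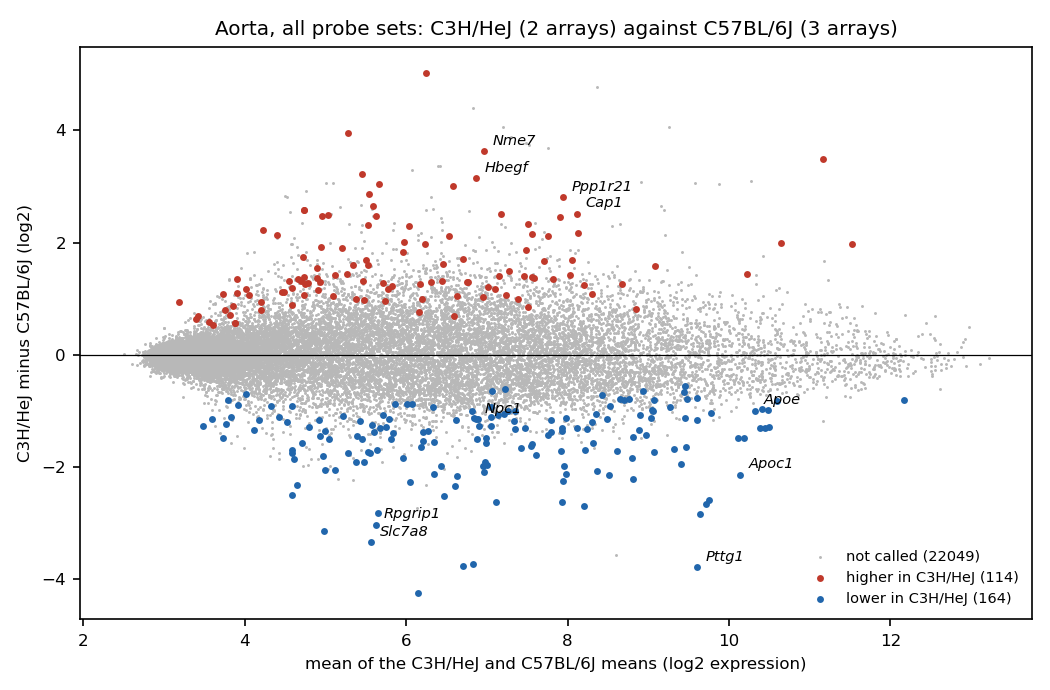
Each point is 1 of 22327 probe sets: the horizontal axis is the mean of both strain means and the vertical axis C3H/HeJ minus C57BL/6J, both in log2. The 114 probe sets called higher (red) and 164 called lower (blue) lie among uncalled probe sets with differences as large.

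The number of calls depended on single arrays. It was 83 probe sets without C3H/HeJ replicate 1, 73 without C3H/HeJ replicate 2, 150 without C57BL/6J replicate 1, 108 without C57BL/6J replicate 2 and 1123 without C57BL/6J replicate 3. Of the 150 genes, 147 were still called without C57BL/6J replicate 3. It was the C57BL/6J array nearest to C3H/HeJ in 41 of the 64 higher and 65 of the 86 lower genes. Calls on 19 genes were kept without each of the 5 arrays in turn, and also under each other alternative in which they were tested, except the spread of the 5 arrays alone. Frzb, Cd209d and 6030458C11Rik fell below the filter on the median level and were not tested under it. The 9 higher ones were Nme7, Hbegf, Tmem87a, Ppp1r21, Abhd1, Cap1, Frzb, Cd209d and 6030458C11Rik. The 10 lower ones were Pttg1, Pdxdc1, Rpgrip1, Cyp2d22, Metap1d, Slc1a5, Apoc1, Copz2, Adh1 and Dctn3. With the spread of the 5 arrays alone, 26 probe sets were called, and 11 of the 150 genes remained: Nme7, Ms4a1, Tmem87a, Cap1, Frzb, Rbp7, Olig1, Pttg1, Slc7a8, Cyp2d22 and Metap1d.

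**Figure D2:**
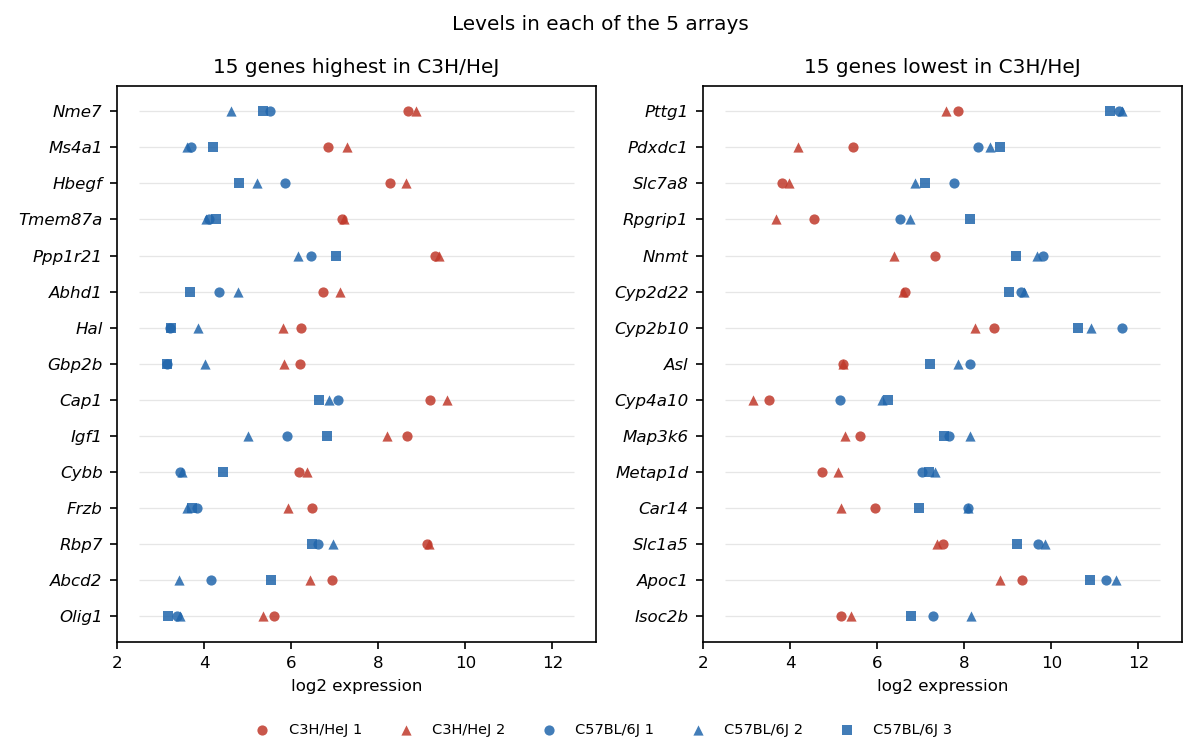
Log2 expression in each of the 5 arrays (C3H/HeJ red, C57BL/6J blue) for the 15 called genes with the largest positive and the 15 with the largest negative difference. The genes were selected on these same arrays, and the groups do not overlap for any of them, from Nme7 and Ms4a1 at the top left to Isoc2b at the bottom right.

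The largest rise among the genes was that of Nme7, which encodes a nucleoside diphosphate kinase family protein of the centrosome and cilia. It measured 8.69 and 8.88 in C3H/HeJ and 5.52, 4.61 and 5.34 in C57BL/6J. The difference was 3.62 (SE 0.31, adjusted p = 2.4e-16), or 12.3-fold, and the C3H/HeJ arrays stood apart from every array of C57BL/6J. A second, dim Nme7 probe set had means of 4.03 and 4.22 and a difference of -0.19 (adjusted p = 0.76). None of the 26 other classical inbred strains lay on the C3H/HeJ side of the midpoint between the parents for the brighter probe set.

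Nme7 starts head to head with Blzf1, which encodes a Golgi matrix protein, and the RefSeq promoter windows of both genes, 250 bases before to 50 after the start, overlap by 284 and 287 bases. The pair of Blzf1 probe sets had differences of 0.60 and 0.63 (adjusted p = 0.57 and 0.535), so neither was called. Cap1, encoding an actin-binding adenylyl cyclase-associated protein, and Ppt1, encoding the lysosomal palmitoyl-protein thioesterase, are adjacent genes on chromosome 4 that rose together. The windows of these 3 called genes are shown because the first is shared with an uncalled neighbour and the others belong to neighbours that moved together. They were taken from RefSeq on GRCm38.p6, an assembly of C57BL/6J, which gave windows for 116 of the 150 called genes, and so they show no C3H/HeJ allele. Capitals mark CCAAT and GGGCGG on either strand, found in 37.4% and 35.7% of all 32851 windows. The Nme7 window, chr1:164307422-164307721 on the plus strand, held 3 of the first and 1 of the second, the Cap1 window, chr4:122886027-122886326 on the minus strand, held 1 of the first, and the Ppt1 window, chr4:122835977-122836276 on the plus strand, held neither.
Nme7: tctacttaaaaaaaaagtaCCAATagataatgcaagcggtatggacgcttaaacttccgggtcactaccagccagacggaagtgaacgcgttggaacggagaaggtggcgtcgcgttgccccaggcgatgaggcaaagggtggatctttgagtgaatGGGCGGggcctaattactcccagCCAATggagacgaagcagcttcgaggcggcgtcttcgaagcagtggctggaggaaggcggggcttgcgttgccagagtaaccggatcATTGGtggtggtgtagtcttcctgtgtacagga
Cap1: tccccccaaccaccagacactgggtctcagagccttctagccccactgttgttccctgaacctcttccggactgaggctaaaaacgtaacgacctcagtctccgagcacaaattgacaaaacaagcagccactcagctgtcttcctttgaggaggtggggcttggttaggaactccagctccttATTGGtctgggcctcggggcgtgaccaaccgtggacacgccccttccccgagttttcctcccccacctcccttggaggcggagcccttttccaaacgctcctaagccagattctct
Ppt1: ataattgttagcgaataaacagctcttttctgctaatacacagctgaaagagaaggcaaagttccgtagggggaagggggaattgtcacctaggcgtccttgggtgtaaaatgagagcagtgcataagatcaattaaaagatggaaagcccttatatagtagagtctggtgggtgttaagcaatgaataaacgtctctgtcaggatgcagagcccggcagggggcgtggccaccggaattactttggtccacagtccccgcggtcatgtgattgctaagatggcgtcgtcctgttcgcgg

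Cap1 stood at 9.18 and 9.58 in C3H/HeJ and 7.06, 6.88 and 6.65 in C57BL/6J. Its difference was 2.51 (SE 0.35, adjusted p = 1.78e-07), and a second Cap1 probe set differed by 3.01 (SE 0.47, adjusted p = 4.01e-06). Ppt1 read 8.65 and 9.004 in C3H/HeJ and 7.77, 7.42 and 7.55 in C57BL/6J, with a smaller difference of 1.25 (SE 0.27, adjusted p = 0.00232). A second Ppt1 probe set was higher by 1.09 and was not called (adjusted p = 0.115). For both genes every C3H/HeJ array lay above every C57BL/6J array. Leaving out C3H/HeJ replicate 2 ended the call on Ppt1 (adjusted p = 0.237).

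Hbegf encodes heparin-binding EGF-like growth factor, a smooth muscle mitogen shed from the cell membrane. Its levels were 8.26 and 8.62 in C3H/HeJ and 5.86, 5.22 and 4.80 in C57BL/6J. C3H/HeJ was higher by 3.15 (SE 0.39, adjusted p = 2.34e-09), and the other Hbegf probe set was higher by 2.86 (SE 0.22, adjusted p = 1.12e-18). No other inbred strain of 26 was on the C3H/HeJ side. Against CBA/J, A/J and DBA/2J the differences of Hbegf were 4.20 (adjusted p = 1.54e-12), 4.01 (adjusted p = 8.86e-12) and 3.85 (adjusted p = 7e-11).

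Ppp1r21 encodes a subunit of protein phosphatase 1 that acts in endosomes. It measured 9.31 and 9.39 in C3H/HeJ and 6.46, 6.15 and 7.03 in C57BL/6J, a difference of 2.81 (SE 0.31, adjusted p = 7.04e-11). The arrays did not overlap, and 1 of 26 other inbred strains lay on the C3H/HeJ side. Tmem87a, encoding a Golgi membrane protein, gave 7.17 and 7.21 in C3H/HeJ and 4.10, 4.05 and 4.27 in C57BL/6J and differed by 3.05 (SE 0.41, adjusted p = 8.24e-08). Here the 3 C57BL/6J arrays were the unusual ones, since 23 of 26 other inbred strains lay on the C3H/HeJ side.

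Igf1, the insulin-like growth factor, read 8.65 and 8.21 in C3H/HeJ and 5.90, 5.01 and 6.82 in C57BL/6J, and the difference was 2.51 (SE 0.51, adjusted p = 0.00117). Its C57BL/6J arrays spread over more than a doubling and, as for every called gene, did not overlap those of C3H/HeJ. Another Igf1 probe set was higher by 1.60 (adjusted p = 0.00117), and the remaining probe set, higher by 1.07, was not called (adjusted p = 0.152). Frzb, a secreted antagonist of Wnt ligands, measured 6.48 and 5.92 in C3H/HeJ and 3.83, 3.60 and 3.73 in C57BL/6J and was higher by 2.48 (SE 0.40, adjusted p = 9.05e-06). Rbp7, a retinol-binding protein of adipose and endothelial cells, had 9.12 and 9.16 in C3H/HeJ and 6.62, 6.96 and 6.47 in C57BL/6J, a difference of 2.45 (SE 0.53, adjusted p = 0.00262). The call on Igf1 was lost without C3H/HeJ replicate 1 (adjusted p = 0.102) or C57BL/6J replicate 2 (adjusted p = 0.0589), and that on Rbp7 without C3H/HeJ replicate 1 (adjusted p = 0.0771) or C3H/HeJ replicate 2 (adjusted p = 0.101). The other genes among the 15 with the largest rises were Abhd1 (2.66), Hal, the histidine ammonia lyase (2.59), Gbp2b, an interferon-induced guanylate-binding protein (2.58), Abcd2, a peroxisomal very long chain fatty acid transporter (2.31), and Olig1, a transcription factor of oligodendrocytes (2.14), beside Ms4a1 and Cybb, described with the leukocyte genes. Calls were lost on Hal without C3H/HeJ replicate 1 (adjusted p = 0.093), on Gbp2b without C3H/HeJ replicate 1 (adjusted p = 0.121), on Abcd2 without C3H/HeJ replicate 1 (adjusted p = 0.209), C3H/HeJ replicate 2 (adjusted p = 0.0516) or C57BL/6J replicate 2 (adjusted p = 0.154) and on Olig1 without C3H/HeJ replicate 1 (adjusted p = 0.172) or C3H/HeJ replicate 2 (adjusted p = 0.0837). That on Gbp2b was also lost with the spread of classical inbred strains (adjusted p = 0.0505).

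Among the lower genes, Pttg1 differed most. It encodes securin, which holds back the separation of sister chromatids, and it measured 7.85 and 7.58 in C3H/HeJ and 11.56, 11.61 and 11.34 in C57BL/6J. The difference was -3.79 (SE 0.73, adjusted p = 0.000502), and a second probe set was lower by 3.73 (SE 0.61, adjusted p = 1.30e-05). The remaining, dim probe set had a difference of -0.65 (adjusted p = 0.391). All 26 other inbred strains lay on the C3H/HeJ side, so C57BL/6J was the strain that stood apart. No other member of the 12 measured cell cycle genes was called, and the median of the list was -0.05.

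Pdxdc1, a pyridoxal-dependent decarboxylase domain gene, was lower by 3.76 (SE 0.42, adjusted p = 6.3e-11) in its brightest probe set, with 5.45 and 4.18 in C3H/HeJ and 8.32, 8.58 and 8.83 in C57BL/6J. A second probe set went the other way, with 7.23 and 7.27 in C3H/HeJ and 3.41, 3.27 and 3.24 in C57BL/6J, a difference of 3.95 (SE 0.26, adjusted p = 2.06e-23). The arrays separate cleanly in both, in opposite directions, so no direction is given for the gene. Of the 63 called genes with several probe sets, 14 had a second probe set called in the same direction and 50 had every probe set on the same side, and Pdxdc1 and H2-D1 had calls in opposite directions. The other 87 called genes have 1 probe set each, and whether base differences under the probes of a strain alter its signal was not tested.

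Several of the 15 largest falls were in enzymes and transporters of small molecules. Cyp2d22, a cytochrome P450, measured 6.63 and 6.60 in C3H/HeJ and 9.31, 9.38 and 9.03 in C57BL/6J, lower by 2.62 (SE 0.48, adjusted p = 0.000142), with every C3H/HeJ array below every C57BL/6J array. Cyp2b10, an enzyme that phenobarbital induces, read 8.69 and 8.25 in C3H/HeJ and 11.62, 10.92 and 10.62 in C57BL/6J, a difference of -2.59 (SE 0.65, adjusted p = 0.0182). Cyp4a10, a fatty acid omega-hydroxylase, was at 3.52 and 3.15 in C3H/HeJ, near the bottom of the scale, and at 5.14, 6.10 and 6.24 in C57BL/6J, a difference of -2.49 (SE 0.68, adjusted p = 0.039). The call on Cyp2b10 was lost without C3H/HeJ replicate 1 (adjusted p = 0.128), C3H/HeJ replicate 2 (adjusted p = 0.375), C57BL/6J replicate 1 (adjusted p = 0.146) or C57BL/6J replicate 2 (adjusted p = 0.063). That on Cyp4a10 was lost without C3H/HeJ replicate 1 (adjusted p = 0.23), C3H/HeJ replicate 2 (adjusted p = 0.489), C57BL/6J replicate 2 (adjusted p = 0.213) or C57BL/6J replicate 3 (adjusted p = 0.0551). Adjusted p-values were also above 0.05 for Cyp2b10 with the array number range as a covariate (adjusted p = 0.0509) and with the macrophage and B cell scores as covariates (adjusted p = 0.0539) (the latter chosen after seeing the data), and for Cyp4a10 with the array number range as a covariate (adjusted p = 0.0982), with the spread of classical inbred strains (adjusted p = 0.119) and without arrays high in those of thymocytes or epithelium (adjusted p = 0.0561). In the list of glutathione S-transferases and cytochrome P450 enzymes, 1 of 22 measured genes was called, Cyp2d22, and 9 had all C3H/HeJ arrays below all C57BL/6J arrays, beside 16.5% of all genes. The list's median was -0.46, where that of all genes was -0.04.

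Nnmt, the nicotinamide N-methyltransferase, was at 7.32 and 6.39 in C3H/HeJ and 9.81, 9.66 and 9.19 in C57BL/6J, a difference of -2.70 (SE 0.47, adjusted p = 5.73e-05). Slc7a8, an exchanger of neutral amino acids, fell from 7.75, 6.86 and 7.10 in C57BL/6J to 3.82 and 3.97 in C3H/HeJ, a difference of -3.34 (SE 0.68, adjusted p = 0.00117). Slc1a5, the sodium-dependent glutamine transporter, measured 7.502 and 7.37 in C3H/HeJ and 9.69, 9.86 and 9.21 in C57BL/6J and was lower by 2.15 (SE 0.31, adjusted p = 7.74e-07). For both carriers every C3H/HeJ array lay below every C57BL/6J array. Asl, the argininosuccinate lyase of arginine synthesis, was at 5.21 and 5.21 in C3H/HeJ and 8.13, 7.86 and 7.21 in C57BL/6J, a difference of -2.52 (SE 0.56, adjusted p = 0.0045). Calls were lost on Nnmt without C3H/HeJ replicate 2 (adjusted p = 0.0693), on Slc7a8 without C3H/HeJ replicate 1 (adjusted p = 0.0603) and on Asl without C3H/HeJ replicate 1 (adjusted p = 0.105) or C3H/HeJ replicate 2 (adjusted p = 0.12).

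Smaller sets of values complete the 15 largest falls. Rpgrip1, which anchors a ciliary protein in photoreceptors, measured 4.54 and 3.68 in C3H/HeJ and 6.53, 6.75 and 8.12 in C57BL/6J, and C3H/HeJ was lower by 3.02 (SE 0.33, adjusted p = 2.97e-11). Its other, dim probe sets had differences of -0.05 (adjusted p = 0.955), 0.10 (adjusted p = 0.813) and 0.08 (adjusted p = 0.821). Metap1d, a mitochondrial methionine aminopeptidase, gave 4.73 and 5.10 in C3H/HeJ and 7.02, 7.34 and 7.18 in C57BL/6J, a difference of -2.26 (SE 0.26, adjusted p = 4.56e-10). Neither gene had overlapping arrays in its brightest probe set. Car14, a membrane carbonic anhydrase (-2.15), Map3k6, a stress-activated kinase (-2.34), and Isoc2b (-2.13) were also lower. Calls were lost on Car14 without C3H/HeJ replicate 1 (adjusted p = 0.0528), C3H/HeJ replicate 2 (adjusted p = 0.478), C57BL/6J replicate 1 (adjusted p = 0.0937) or C57BL/6J replicate 2 (adjusted p = 0.108), on Map3k6 without C3H/HeJ replicate 2 (adjusted p = 0.0633) and on Isoc2b without C3H/HeJ replicate 1 (adjusted p = 0.0897) or C57BL/6J replicate 2 (adjusted p = 0.0636). That on Car14 was also lost with the macrophage and B cell scores as covariates (adjusted p = 0.073).

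Genes of lipoprotein handling were examined because the strains differ in atherosclerosis. Of 19 measured genes in the list of lipoprotein uptake and cholesterol efflux, 3 were called, all lower in C3H/HeJ, and 16 did not pass. Of all genes, 1.28% were called. In the list, 7 genes lay wholly above C57BL/6J and 6 wholly below it, beside 13.7% and 16.5% of all genes. Apoc1, a small apolipoprotein that inhibits lipoprotein uptake by receptors, measured 9.34 and 8.82 in C3H/HeJ and 11.26, 11.48 and 10.89 in C57BL/6J. Its difference was -2.13 (SE 0.29, adjusted p = 1.01e-07), a 4.39-fold lower signal, and the arrays did not overlap. Apoe, the ligand by which remnants bind the LDL receptor and an acceptor of macrophage cholesterol, lies next to Apoc1 on chromosome 7. It measured 9.61 and 10.04 in C3H/HeJ and 10.79, 10.77 and 10.90 in C57BL/6J, and the fall was 1.00 (SE 0.28, adjusted p = 0.0428). The lower C57BL/6J array of Apoe, at 10.77, was above the higher C3H/HeJ array. Npc1, which moves cholesterol out of lysosomes, was at 6.16 and 6.42 in C3H/HeJ and 7.65, 6.95 and 7.71 in C57BL/6J, a difference of -1.15 (SE 0.24, adjusted p = 0.00173), again with no overlap.

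These 3 calls were not equally firm. Apoc1 was called without each array in turn. The call on Npc1 was lost without C3H/HeJ replicate 1 (adjusted p = 0.149). That on Apoe was lost without C3H/HeJ replicate 1 (adjusted p = 0.567), C3H/HeJ replicate 2 (adjusted p = 0.134), C57BL/6J replicate 1 (adjusted p = 0.122) or C57BL/6J replicate 2 (adjusted p = 0.136), and also with the array number range as a covariate (adjusted p = 0.0608) and with the spread of classical inbred strains (adjusted p = 0.131). The brightest uncalled members were Cd36, the fatty acid and oxidised lipoprotein receptor, at 11.87 and 11.88 in C3H/HeJ and 11.54, 10.24 and 11.86 in C57BL/6J, and Npc2, the partner of Npc1 in the lysosome, at 11.30 and 11.03 in C3H/HeJ and 11.41, 11.70 and 10.998 in C57BL/6J. Npc2 overlapped between the strains, whereas both C3H/HeJ arrays of Cd36 lay narrowly above C57BL/6J replicate 3 (adjusted p = 0.623). The list's median was -0.15, beside -0.04 for all genes. In the sterol synthesis list, none of 12 measured genes was called (limma), and the median was -0.32.

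Direct contrasts placed these genes among other strains. Apoc1 in C3H/HeJ differed from A/J by -1.81 (adjusted p = 0.000165) and from DBA/2J by -1.75 (adjusted p = 0.000312), and its difference from CBA/J was 0.11 (adjusted p = 1). For Npc1 the differences from A/J, DBA/2J and CBA/J were -1.06 (adjusted p = 0.0323), -1.19 (adjusted p = 0.00737) and -0.28 (adjusted p = 1). Apoe passed in none of these contrasts, with differences of 0.27 (adjusted p = 1), -0.54 (adjusted p = 0.991) and -0.03 (adjusted p = 1).

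Most B cell and macrophage genes had higher means in C3H/HeJ, though only Ms4a1 of these lists passed the test. Ms4a1, encoding the B cell antigen CD20, measured 6.84 and 7.28 in C3H/HeJ and 3.69, 3.61 and 4.21 in C57BL/6J, a difference of 3.23 (SE 0.86, adjusted p = 0.0312). A second Ms4a1 probe set was higher by 1.53 and was not called (adjusted p = 0.214). Ms4a1 was 1 of 8 measured B cell and plasma cell genes called, and all 8 had both C3H/HeJ arrays above the 3 of C57BL/6J, beside 13.7% of all genes, with a median difference of 1.88. Jchain, the joining chain of secreted antibodies, was at 7.11 and 9.09 in C3H/HeJ and 5.28, 4.90 and 4.05 in C57BL/6J (difference 3.36, adjusted p = 0.056), and Cd79a, of the B cell receptor, at 6.29 and 7.34 in C3H/HeJ and 5.20, 4.98 and 4.61 in C57BL/6J (difference 1.88, adjusted p = 0.238). B cell scores were 0.57 and 1.38 in C3H/HeJ and -1.01, -1.07 and -1.14 in C57BL/6J, in a range from -1.44 to 2.75 over all arrays. With macrophage and B cell scores as covariates, an alternative chosen after seeing the data, the difference of Ms4a1 was 0.87 (adjusted p = 0.387), and the call was also lost with the spread of classical inbred strains (adjusted p = 0.0667) and without C3H/HeJ replicate 1 (adjusted p = 0.209), C3H/HeJ replicate 2 (adjusted p = 0.455), C57BL/6J replicate 1 (adjusted p = 0.122) or C57BL/6J replicate 2 (adjusted p = 0.162).

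Macrophage genes gave a like picture with smaller differences. None of 17 measured genes was called by limma, 16 were positive, and 11 had every C3H/HeJ array above every C57BL/6J array, beside 13.7% of all genes. Their median difference was 1.01. Lyz2, the macrophage lysozyme, measured 10.9999 and 10.95 in C3H/HeJ and 9.59, 9.36 and 10.16 in C57BL/6J (difference 1.27, adjusted p = 0.161), and C1qa, of complement C1q, measured 8.81 and 8.78 in C3H/HeJ and 7.83, 8.49 and 7.90 in C57BL/6J (difference 0.72, adjusted p = 0.577). The macrophage scores were 0.78 and 0.77 in C3H/HeJ and -0.34, -0.16 and -0.10 in C57BL/6J. Cybb, the catalytic subunit of the phagocyte NADPH oxidase, was called, at 6.18 and 6.37 in C3H/HeJ and 3.45, 3.48 and 4.42 in C57BL/6J, a difference of 2.49 (SE 0.52, adjusted p = 0.00207). It was the only one of 24 antioxidant and NADPH oxidase genes to pass, and its call was lost without C3H/HeJ replicate 1 (adjusted p = 0.0521) or C3H/HeJ replicate 2 (adjusted p = 0.107), and with the macrophage and B cell scores as covariates (adjusted p = 0.0552).

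The list of mast cell and eosinophil genes included 2 calls of 14 measured, beside 1.28% of all genes. Its median difference was 0.18, smaller than the differences of the mast cell genes named here, beside -0.04 for all genes. Cpa3, the mast cell carboxypeptidase, stood at 7.51 and 7.66 in C3H/HeJ and 5.24, 4.96 and 6.21 in C57BL/6J, a difference of 2.12 (SE 0.59, adjusted p = 0.0471), and Tpsab1, a tryptase, at 4.48 and 4.43 in C3H/HeJ and 3.35, 3.26 and 3.43 in C57BL/6J, a difference of 1.11 (SE 0.31, adjusted p = 0.0448). The chymases Cma1 and Mcpt4 had differences of 1.43 (adjusted p = 0.267) and 1.04 (adjusted p = 0.413). The call on Cpa3 was lost without C3H/HeJ replicate 1 (adjusted p = 0.283), C3H/HeJ replicate 2 (adjusted p = 0.477), C57BL/6J replicate 1 (adjusted p = 0.187) or C57BL/6J replicate 2 (adjusted p = 0.351). That on Tpsab1 was lost without C3H/HeJ replicate 1 (adjusted p = 0.341), C3H/HeJ replicate 2 (adjusted p = 0.369), C57BL/6J replicate 1 (adjusted p = 0.139) or C57BL/6J replicate 2 (adjusted p = 0.213). Adjusted p-values were also above 0.05 for Cpa3 with BXD32/TyJ included (adjusted p = 0.0557), with the array number range as a covariate (adjusted p = 0.0661), with centred arrays (adjusted p = 0.0574), with the macrophage and B cell scores as covariates (adjusted p = 0.114) and with the spread of classical inbred strains (adjusted p = 0.164). The same was so for Tpsab1 with the array number range as a covariate (adjusted p = 0.0565), with centred arrays (adjusted p = 0.115), with the macrophage and B cell scores as covariates (adjusted p = 0.187), with the spread of classical inbred strains (adjusted p = 0.37), with the muscle and epithelial scores as covariates (adjusted p = 0.0539) and without arrays high in those of thymocytes or epithelium (adjusted p = 0.0986). Clec3b, tetranectin, was the only call among 9 adventitial fibroblast genes, at 8.13 and 7.92 in C3H/HeJ and 6.18, 6.79 and 6.60 in C57BL/6J, a difference of 1.4999 (SE 0.41, adjusted p = 0.0409). Retn, the adipocyte hormone resistin, was the only call among 11 adipocyte genes, at 8.61 and 8.34 in C3H/HeJ and 10.005, 10.49 and 9.98 in C57BL/6J, a difference of -1.68 (SE 0.41, adjusted p = 0.0142), while Fabp4 and Lpl, of fatty acid binding and triglyceride hydrolysis, had differences of 0.37 and 0.26. The call on Clec3b was lost without C3H/HeJ replicate 1 (adjusted p = 0.385), C3H/HeJ replicate 2 (adjusted p = 0.289), C57BL/6J replicate 1 (adjusted p = 0.231) or C57BL/6J replicate 2 (adjusted p = 0.0801), and that on Retn without C3H/HeJ replicate 1 (adjusted p = 0.121), C3H/HeJ replicate 2 (adjusted p = 0.337) or C57BL/6J replicate 2 (adjusted p = 0.142). That on Clec3b was also lost with the array number range as a covariate (adjusted p = 0.0712), with centred arrays (adjusted p = 0.101), with the macrophage and B cell scores as covariates (adjusted p = 0.0895) and with the spread of classical inbred strains (adjusted p = 0.0604).

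**Figure D3:**
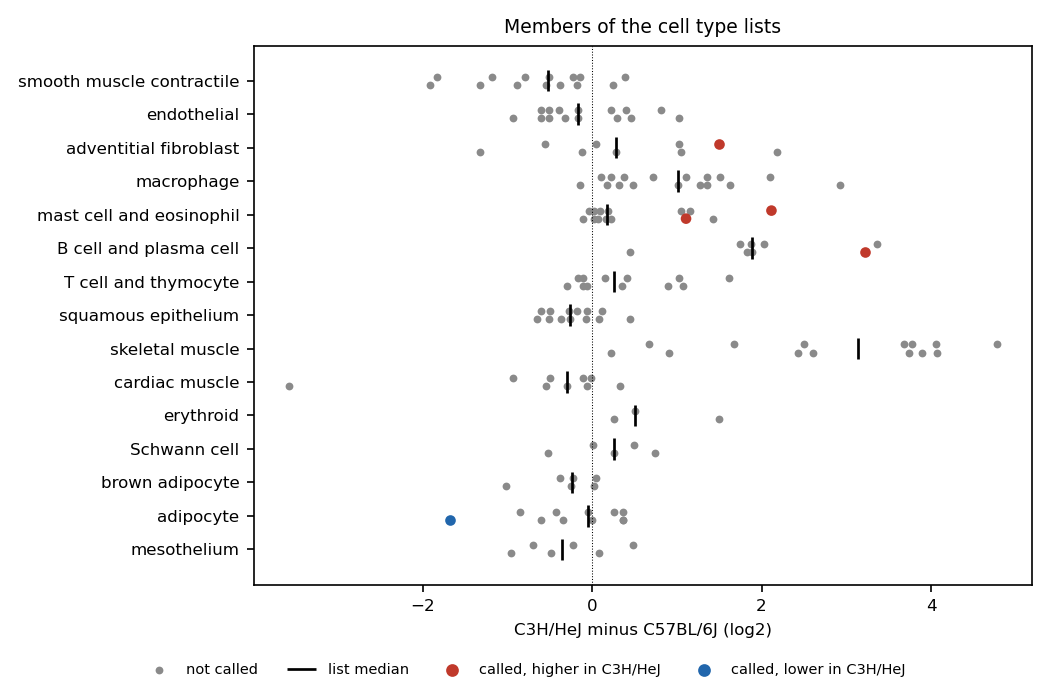
Each point is 1 measured gene of a cell type list, at its C3H/HeJ minus C57BL/6J difference in log2, with black bars at list medians and larger coloured points for called genes. The skeletal muscle and B cell lists lie to the right, with medians of 3.14 and 1.88, and the smooth muscle list lies to the left, with a median of -0.52.

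None of the 14 smooth muscle genes, 15 endothelial genes, 18 elastic fibre and basement membrane genes, 22 collagen and proteoglycan genes, 15 TGF-beta pathway genes or 16 vascular calcification genes was called. Smooth muscle genes had a median of -0.52, with 4 of 14 wholly below C57BL/6J beside 16.5% of all genes, and their scores were -0.66 and 0.18 in C3H/HeJ and 0.76, 0.29 and 0.21 in C57BL/6J. Eln, the elastin gene, measured 9.15 and 9.59 in C3H/HeJ and 10.36, 10.55 and 9.37 in C57BL/6J and Mgp, matrix Gla protein, 11.75 and 11.81 in C3H/HeJ and 12.04, 11.90 and 11.95 in C57BL/6J. C57BL/6J replicate 3 lay between the C3H/HeJ arrays for Eln, while every C57BL/6J array was above C3H/HeJ for Mgp (adjusted p = 0.845). For scale, Eln had a standard error of 0.52 and Mgp one of 0.30, so a difference of the size seen for Eln was not detectable with these arrays.

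Endotoxin and interferon genes were of interest because of the Tlr4 allele. Tlr4 itself measured 5.17 and 5.11 in C3H/HeJ and 4.92, 4.397 and 5.42 in C57BL/6J, a difference of 0.23 (adjusted p = 0.748), and the groups overlapped. The missense allele changes the protein, which these arrays do not measure. Of 20 measured toll-like receptor and endotoxin signalling genes, 1 was called: Tlr6, a partner of Tlr2, with 3.67 and 4.03 in C3H/HeJ and 3.41, 3.19 and 3.20 in C57BL/6J, a difference of 0.58 (SE 0.16, adjusted p = 0.0403) at levels near the bottom of the scale. Nfkbia, the inhibitor of NF-kappa B, had 8.30 and 8.55 in C3H/HeJ and 9.41, 9.93 and 9.60 in C57BL/6J, no overlap and an adjusted p of 0.0526. The call on Tlr6 was lost without C3H/HeJ replicate 1 (adjusted p = 0.0596), C3H/HeJ replicate 2 (adjusted p = 0.75) or C57BL/6J replicate 2 (adjusted p = 0.238), and also with the array number range as a covariate (adjusted p = 0.0588), with centred arrays (adjusted p = 0.138) and with the macrophage and B cell scores as covariates (adjusted p = 0.181). None of 12 interferon response genes or 14 interferon-inducible GTPases and Ifi200 genes was called, with medians of 0.68 and 0.53. Rsad2, an antiviral enzyme, measured 8.48 and 7.85 in C3H/HeJ and 6.44, 5.90 and 8.10 in C57BL/6J, and C57BL/6J replicate 3 fell within the range of C3H/HeJ.

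C3H/HeJ carries the H2-k and C57BL/6J the H2-b haplotype of the major histocompatibility complex, and probe sets of class I genes differed in both directions. H2-D1 was lower by 1.48 (SE 0.30, adjusted p = 0.00138) in its brightest probe set, at 9.25 and 9.64 in C3H/HeJ and 11.13, 10.99 and 10.65 in C57BL/6J. Another of its 5 probe sets gave the largest difference of the whole contrast, with 8.66 and 8.85 in C3H/HeJ and 3.58, 4.13 and 3.48 in C57BL/6J, higher by 5.02 (SE 0.22, adjusted p = 9.10e-36). The call on the brightest was lost without C3H/HeJ replicate 1 (adjusted p = 0.15). Class I genes are near-identical copies that these probes can share, so neither value is read as the level of the gene. C3H/HeJ and CBA/J, both H2-k, differed by 0.26 (adjusted p = 1) and 0.08 (adjusted p = 1) in these probe sets. Of 11 measured class II genes none was called, and all were positive with a median of 0.48.

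Of the genes listed as known strain alleles or atherosclerosis candidates, 15 were measured and 1 was called, beside 1.28% of all genes. Glo1, glyoxalase 1, known to lie in a segment that is duplicated in some inbred strains, measured 9.29 and 9.33 in C3H/HeJ and 8.08, 7.70 and 8.37 in C57BL/6J, a difference of 1.26 (SE 0.29, adjusted p = 0.00511). All 3 Glo1 probe sets were called, the others at 1.42 and 1.37. The call on the brightest was lost without C3H/HeJ replicate 1 (adjusted p = 0.105), C3H/HeJ replicate 2 (adjusted p = 0.143) or C57BL/6J replicate 2 (adjusted p = 0.0989). Nnt, the mitochondrial transhydrogenase that carries a deletion in C57BL/6J, read 7.95 and 7.34 in C3H/HeJ and 5.63, 5.34 and 7.04 in C57BL/6J, a difference of 1.64 (adjusted p = 0.265), and C57BL/6J replicate 3 stood near C3H/HeJ while the other C57BL/6J arrays were lower. Apoa2 reached 9.53 in C57BL/6J replicate 2 alone and lay between 3.81 and 5.26 in the other 4 arrays. The remaining members had differences of 0.62 (Alox5ap), 0.59 (Cd5l), 0.47 (Fcgr2b), 0.35 (Ifi202b), 0.17 (Ide), 0.12 (Insig2), 0.08 (Pde6b), -0.02 (Cep290), -0.05 (Tnfsf4), -0.05 (Abcc6) and -0.36 (Gpnmb). None of those 11 passed the test.

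In the circadian clock list, 2 of 13 measured genes were called, in opposite directions, beside 1.28% of all genes. Bhlhe40, a repressor of clock transcription, measured 8.72 and 8.28 in C3H/HeJ and 7.04, 7.13 and 7.27 in C57BL/6J, a difference of 1.35 (SE 0.36, adjusted p = 0.0311), and Npas2, a partner of Bmal1, measured 4.13 and 3.72 in C3H/HeJ and 5.17, 4.90 and 5.30 in C57BL/6J, a difference of -1.20 (SE 0.28, adjusted p = 0.00909). The call on Bhlhe40 was lost without C3H/HeJ replicate 1 (adjusted p = 0.459), C3H/HeJ replicate 2 (adjusted p = 0.143), C57BL/6J replicate 1 (adjusted p = 0.137) or C57BL/6J replicate 2 (adjusted p = 0.132), and that on Npas2 without C3H/HeJ replicate 2 (adjusted p = 0.425). That on Bhlhe40 was also lost with centred arrays (adjusted p = 0.0704) and with the spread of classical inbred strains (adjusted p = 0.11). None of 27 respiratory chain genes was called by limma. Of the 27, 12 had every C3H/HeJ array below every C57BL/6J array, a larger share than the 16.5% of all genes.

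**Figure D4:**
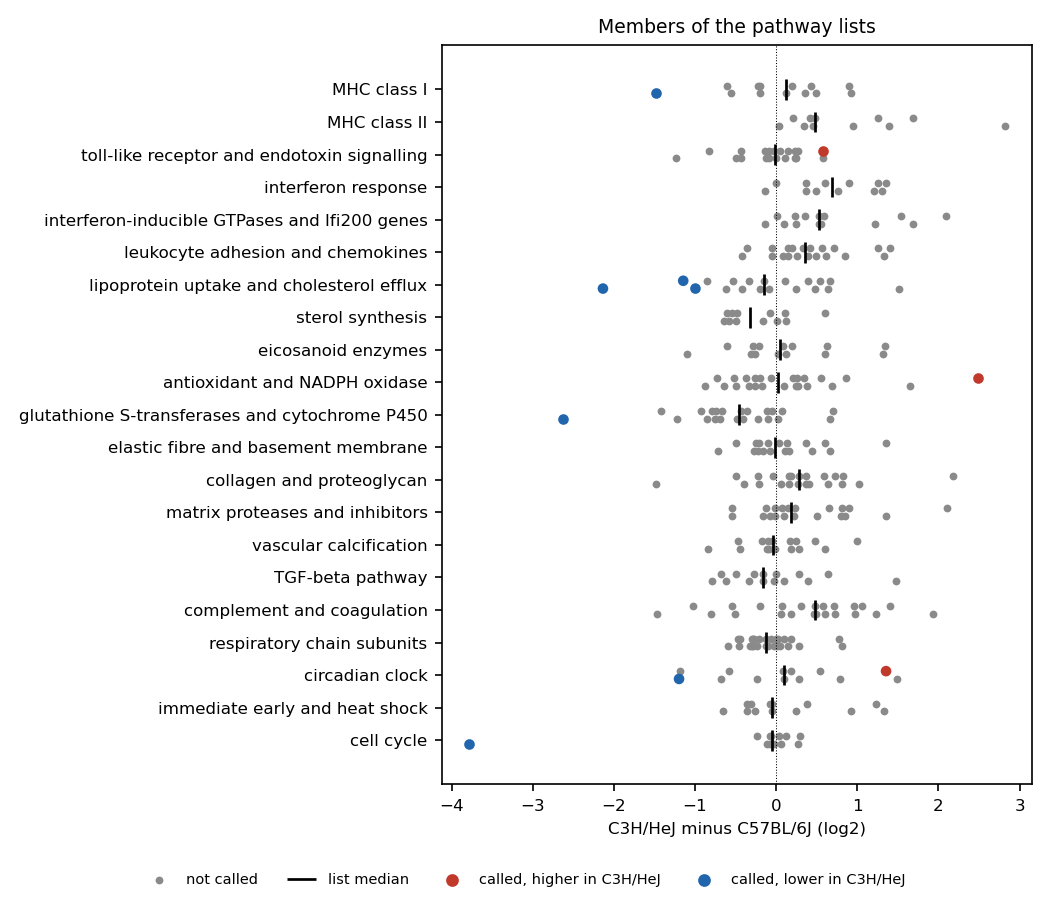
C3H/HeJ minus C57BL/6J difference in log2 for each measured gene of the pathway lists, with black bars at list medians and larger coloured points for called genes. The 3 blue points of lipoprotein uptake and cholesterol efflux are Apoc1, Npc1 and Apoe, and the blue point of the cell cycle list is Pttg1.

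The BXH strains do not enter the parental means, but their 20 arrays in the fit are among the 177 that set the spread behind the parental calls. Across 9 BXH strains with 20 arrays, limma's moderated F test called 281 probe sets (1.26%). Of the 278 parental calls, 92 (33.1%) varied among the BXH strains, against 189 of the 22049 other probe sets (0.857%). By gene, where 1.21% of all genes were called, it was 36 of 150 (24%) against 106 of 11575 (0.916%). Without BXH4/TyJ, which has 4 arrays, 48 of the 278 varied. The BXH strains took both sides of the parental midpoint for 58 of the 64 higher and 80 of the 86 lower genes.

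For Nme7, only BXH6/TyJ and BXH9/TyJ, at 8.55 and 9.99, were on the C3H/HeJ side, and the 8 other strains lay between 4.73 and 5.56 (adjusted p of the F test = 4.31e-05). For Hbegf, BXH20/KccJ alone was high, at 8.72, with the 9 others at or below 5.70 (adjusted p = 0.00028). Both genes thus fell into separate high and low groups, each near one parent. Cap1 was high in 7 strains and low, at or below 6.82, in BXH10/TyJ, BXH22/KccJ and BXH8/TyJ, and the same 3 strains were the lowest for its neighbour Ppt1, whose F test did not pass (adjusted p = 0.0536). Pttg1 was at or above 11.24 in 5 strains and at or below 8.28 in the other 5 (adjusted p = 3.21e-07). Ppp1r21 behaved otherwise: all 10 BXH strains lay between 6.93 and 7.45, on the C57BL/6J side, although the parents differed by 2.81.

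Lipid genes did not follow one pattern in the BXH strains. Apoe ranged from 9.10 to 10.32 over the 10 strains, all below the C57BL/6J level and on the C3H/HeJ side, and varied among them (adjusted p = 0.00639). The parental means were 9.83 in C3H/HeJ and 10.82 in C57BL/6J. The highest strain, BXH19/TyJ at 10.32, thus lay only just under their midpoint, and the lowest lay below C3H/HeJ. Apoc1 ranged from 9.02 to 10.42 and did not pass (adjusted p = 0.129). For Npc1, BXH19/TyJ and BXH9/TyJ, at 6.46 and 6.22, were near C3H/HeJ and the others near C57BL/6J (adjusted p = 0.00563). Slc7a8 was on the C3H/HeJ side in 9 of 10 strains, and even its highest strain, at 5.76, stayed below the lowest C57BL/6J array.

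**Figure D5:**
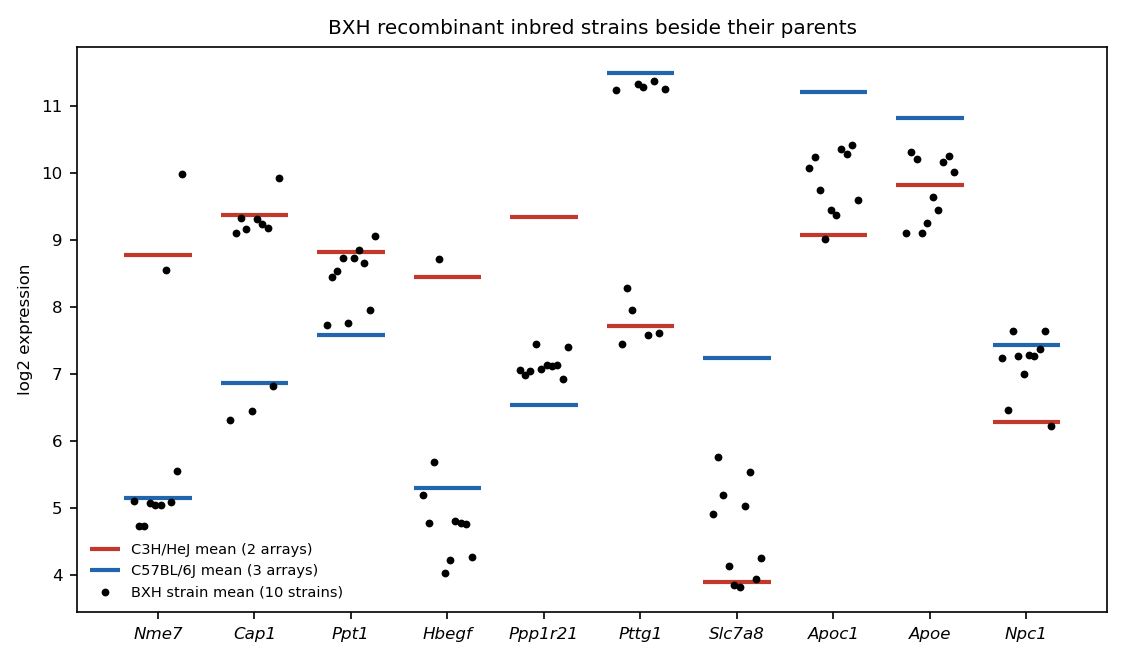
Log2 expression of 10 called genes: red and blue lines are the C3H/HeJ and C57BL/6J means and each black point is the mean of 1 BXH strain. The BXH points of Nme7, Cap1, Hbegf and Pttg1 split into a high and a low group, while those of Ppp1r21 all stay near C57BL/6J and those of Slc7a8 stay below it.

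Called genes were spread over all chromosomes, from 0.753% of measured genes on chromosome 1 to 2.27% on chromosome 17 among the autosomes. Windows of 20 neighbouring measured genes (order from GRCm38.p6) were kept from the smallest count of called genes that at most 0.5% of windows reached. That count was 3, reached by 6 of 11316 windows (0.053%), and these windows formed 1 block. The block ran on chromosome 14 from Psmb5 to Dcaf11, where 4 of 19 genes (21.1%) were called, all lower in C3H/HeJ, beside 1.28% of all genes. They were Psmb5, a proteasome subunit (-0.78), Slc7a8 (-3.34), Pck2, the mitochondrial phosphoenolpyruvate carboxykinase (-1.66), and Dcaf11 (-0.80). The 15 genes between them had differences from -0.52 to 0.33, so the block was not lower as a whole. The call on Psmb5 was lost without C3H/HeJ replicate 1 (adjusted p = 0.243), C3H/HeJ replicate 2 (adjusted p = 0.421), C57BL/6J replicate 1 (adjusted p = 0.139) or C57BL/6J replicate 2 (adjusted p = 0.4). That on Pck2 was lost without C3H/HeJ replicate 1 (adjusted p = 0.301), C3H/HeJ replicate 2 (adjusted p = 0.237), C57BL/6J replicate 1 (adjusted p = 0.0936) or C57BL/6J replicate 2 (adjusted p = 0.209). That on Dcaf11 was lost without C3H/HeJ replicate 1 (adjusted p = 0.128), C3H/HeJ replicate 2 (adjusted p = 0.637), C57BL/6J replicate 1 (adjusted p = 0.237) or C57BL/6J replicate 2 (adjusted p = 0.522). Adjusted p-values were also above 0.05 for Psmb5 with BXD32/TyJ included (adjusted p = 0.0529), with centred arrays (adjusted p = 0.0574) and with the spread of classical inbred strains (adjusted p = 0.197), for Pck2 with the spread of classical inbred strains (adjusted p = 0.107), and for Dcaf11 with BXD32/TyJ included (adjusted p = 0.0601), with centred arrays (adjusted p = 0.0562), with the macrophage and B cell scores as covariates (adjusted p = 0.0631) and with the spread of classical inbred strains (adjusted p = 0.18).

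Windows of 40 genes gave a second block, on chromosome 12, in which 4 of 37 genes were called, in both directions. Adcy3, an adenylyl cyclase (-1.46), Cenpo, a kinetochore protein (-1.72), and Iah1, an esterase (-1.27), were lower, and the same 6 of 10 BXH strains lay on the C3H/HeJ side for these 3. None of the 3 passed the F test across BXH strains (adjusted p = 0.067, 0.133 and 0.262). Pdia6, a protein disulfide isomerase that lies between Cenpo and Iah1, was higher, at 9.31 and 9.21 in C3H/HeJ and 8.52, 7.86 and 8.93 in C57BL/6J, a difference of 0.82 (SE 0.22, adjusted p = 0.0316). It had 2 of 10 BXH strains on the C3H/HeJ side and shared the side of Cenpo, and of Iah1, in 4 of 10 strains, so the called genes of the block did not share one pattern. Calls were lost on Adcy3 without C3H/HeJ replicate 1 (adjusted p = 0.154), C3H/HeJ replicate 2 (adjusted p = 0.547), C57BL/6J replicate 1 (adjusted p = 0.0833) or C57BL/6J replicate 2 (adjusted p = 0.165), on Cenpo without C3H/HeJ replicate 2 (adjusted p = 0.289) on Iah1 without C3H/HeJ replicate 2 (adjusted p = 0.125) and on Pdia6 without C3H/HeJ replicate 1 (adjusted p = 0.341), C3H/HeJ replicate 2 (adjusted p = 0.261), C57BL/6J replicate 1 (adjusted p = 0.0699) or C57BL/6J replicate 2 (adjusted p = 0.692). Adjusted p-values were also above 0.05 for Adcy3 with the array number range as a covariate (adjusted p = 0.0885), with the macrophage and B cell scores as covariates (adjusted p = 0.069) and with the spread of classical inbred strains (adjusted p = 0.115), and for Pdia6 with centred arrays (adjusted p = 0.075) and with the spread of classical inbred strains (adjusted p = 0.307). Adjacent pairs were called at Cap1 and Ppt1, at Apoe and Apoc1, at Nnmt and Zbtb16, at Adcy3 and Cenpo, at Pck2 and Dcaf11, at Slc25a37 and Entpd4 and at Fam160b1 and Gfra1. Slc25a37, the mitochondrial iron importer (-0.96), and Entpd4, a Golgi nucleotidase (-1.20), were lower in C3H/HeJ in their brightest probe sets, for which all 26 other inbred strains and all 10 BXH strains lay on the C3H/HeJ side. A second Slc25a37 probe set went the other way, with means of 7.36 in C3H/HeJ and 5.69 in C57BL/6J and a difference of 1.67 (SE 0.50, adjusted p = 0.0774), so no direction is given for Slc25a37. The call on Slc25a37 was lost without C3H/HeJ replicate 1 (adjusted p = 0.328), C3H/HeJ replicate 2 (adjusted p = 0.386), C57BL/6J replicate 1 (adjusted p = 0.161) or C57BL/6J replicate 2 (adjusted p = 0.295), and that on Entpd4 without C3H/HeJ replicate 1 (adjusted p = 0.19), C3H/HeJ replicate 2 (adjusted p = 0.166), C57BL/6J replicate 1 (adjusted p = 0.0659) or C57BL/6J replicate 2 (adjusted p = 0.163). They were also lost for Slc25a37 with the adipocyte scores as covariates (adjusted p = 0.0552), with centred arrays (adjusted p = 0.0574), with the macrophage and B cell scores as covariates (adjusted p = 0.185) and with the spread of classical inbred strains (adjusted p = 0.139), and for Entpd4 with the macrophage and B cell scores as covariates (adjusted p = 0.0607). Over 37 pairs of successive called genes up to 20 genes apart, a median of 6 of 10 BXH strains took the same side for both genes, as over 92 pairs farther apart, and every strain took the same side for 4 of the near and 1 of the far pairs. Only 36 of the 150 called genes varied among the BXH strains by the F test. For the others the side taken need not reflect a parental allele, so these counts do not settle whether neighbours were inherited together.

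Direct contrasts with other strains, whose means hold no C57BL/6J array, gave fewer calls. CBA/J, A/J and DBA/2J have 2 arrays each, where C57BL/6J has 3, so these contrasts are less precise and the counts are not like for like. All contrasts use the same fit, so the C57BL/6J arrays still help to set the spread. C3H/HeJ differed from CBA/J, which comes from the same founding cross, in 26 probe sets (0.116%), from DBA/2J in 78 (0.349%) and from A/J in 90 (0.403%). Against C57BL/6J, CBA/J had 258 calls, A/J 144 and DBA/2J 117, and these comparisons share the 3 C57BL/6J arrays with the main one. Genes that set C3H/HeJ apart included Nme7, with differences from CBA/J, A/J and DBA/2J of 3.57 (adjusted p = 1.55e-13), 3.76 (adjusted p = 5.13e-15) and 3.25 (adjusted p = 1.04e-11). Ppp1r21 had 2.32 (adjusted p = 5.07e-06), 2.23 (adjusted p = 7.7e-06) and 2.44 (adjusted p = 5.08e-07). Copz2, a coatomer subunit that was lower than in C57BL/6J by 1.98, had -1.53 (adjusted p = 0.00974), -1.41 (adjusted p = 0.0167) and -1.99 (adjusted p = 2.41e-05). Cap1 passed the test against none of the 3 strains, with 0.20 (adjusted p = 1), 0.13 (adjusted p = 1) and -0.05 (adjusted p = 0.996), and its A/J, DBA/2J and CBA/J values against C57BL/6J were 2.39, 2.56 and 2.32. More of the other 26 inbred strains lay on the C3H/HeJ side than on the C57BL/6J side for 16 of the 64 higher and 51 of the 86 lower genes.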

How the data were processed

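Aortic RNA of male mice was measured on Affymetrix HT_MG-430A arrays. The submitters deposited log2 expression values per probe set, made with GCOS and RMA per the submitters' processing notes, and the genome build and tool versions are not given in the sources examined. Control probe sets (89 of 22416) were left out. One linear model per probe set, with a term for each strain, was fitted with limma 3.58.1 (eBayes) in R 4.3.3 (with the package data.table, version 1.17.8) to 177 arrays of 84 strains that have at least 2 arrays, without BXD32/TyJ (93 residual degrees of freedom). Adjusted p-values are Benjamini-Hochberg over all 22327 probe sets, two-sided, with calls below 0.05. Each gene is given by its brightest probe set over all arrays. Variation among BXH strains was tested with limma's F test on 20 arrays. Lists of genes are described by counts and medians. Each count of called members is to be read beside the 1.28% of all genes that were called. Members and lists were chosen with earlier results of these data known. The genes named were the 15 with the largest differences in each direction, members of the lists, genes of the chromosomal blocks, and further genes chosen after their values were seen. Gene symbols came from the platform annotation, updated through RefSeq, and gene order from GRCm38.p6. On simulated data for this contrast, 53% of 100 changes of 1 and 87% of 100 changes of 2 (log2) were recovered. There were 9 false calls among the unchanged probe sets of the 22327 simulated. On simulated BXH strains, 93% of changes of 2 were recovered. These rates need not hold for the real arrays, which were not alike. With single arrays left out, the real calls ran from 73 to 1123 probe sets. The number of arrays limits the precision. Alternatives changed the arrays behind the spread, scaling, filter, covariates and threshold.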

Additional observations from a re-analysis of the deposited data

How the results depend on the processing

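Counts of calls in the main comparison depended on which arrays set the spread. With the 5 arrays alone there were 26 probe sets (12 higher, 14 lower) and 12 genes, and with classical inbred strains alone 73 higher probe sets and 97 genes. Thymocyte, squamous, skeletal and cardiac muscle scores as covariates gave 605 probe sets (257 higher, 348 lower) and 344 genes. Without arrays whose thymocyte or squamous score was above 1 there were 618 (279 and 339) and 337 genes. Brown adipocyte and adipocyte scores as covariates, added after seeing the data, gave 563 (298 and 265) and 327 genes. Leaving out each of the 5 arrays in turn gave 73 to 1123 probe sets (34 to 464 higher, 37 to 659 lower) and 33 to 579 genes. The cause was not tested. Centring each array on its median moved the median of all probe sets from -0.02 to -0.12, changed the sign of none of the 150 genes, kept 113 of their calls and gave 37 higher and 83 lower genes, against 64 and 86. Over 17 alternatives, probe sets called stayed within 1.5 times the main count in 8. The direct contrasts gave 25 to 38 probe sets for CBA/J, 81 to 129 for A/J and 75 to 104 for DBA/2J. Parental calls varying among BXH strains numbered 48 (without BXH4/TyJ) to 121 when each BXH strain was left out. Blocks numbered 0 in windows of 10 genes, 2 in windows of 40, 4 when any probe set counted, and 27 with at least 2 called genes (added after seeing the data).

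Of 60 called genes followed one by one, none changed sign in 946 values, and the call was lost in 206, of which 107 came from leaving out an array and 49 from the spread of the 5 arrays alone. Uncalled genes changed sign 19 times. With the muscle and epithelial scores as covariates, Ckm was at -0.42 and Myl1 at -0.042. With centred arrays, Ucp1 was at -0.062 and Pde6b at -0.020. With macrophage and B cell scores as covariates (added after seeing the data), C1qa was at -0.47, Cd79a at -0.47, Pde6b at -0.0074, Ifi202b at -0.014, Fcgr2b at -0.40, Cd5l at -0.98 and Alox5ap at -0.19. Over the arrays left out in turn, values ran from -0.0058 (without C3H/HeJ replicate 1) to 0.17 for Pde6b, from -0.48 (the same array) to 1.65 for Cd5l, and from -0.049 to 0.0098 (without C57BL/6J replicate 2) for Cep290. Without C57BL/6J replicate 2 the lowest values of Insig2 and Tlr4 were -0.21 and -0.026, their highest being 0.42 and 0.48, and Abcc6 ran from -0.13 to 0.048. Tnfsf4 ran from -0.11 to 0.038 (without C57BL/6J replicate 3).

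No paired analysis was possible because the labels of the C3H/HeJ and C57BL/6J arrays share no replicate numbers that pair them.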

Other observations

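Some probe sets that were not the brightest of their gene also separated the strains. One Hba-a1 probe set, for alpha-globin, was higher in C3H/HeJ by 3.49 (SE 0.55, adjusted p = 4.91e-06) in limma's fit, with 12.83 and 12.99 in C3H/HeJ and 9.002, 10.27 and 8.99 in C57BL/6J. A Prdx2 probe set, for a peroxiredoxin, was lower, with 3.52 and 3.31 in C3H/HeJ and 6.48, 7.06 and 6.12 in C57BL/6J and a difference of -3.14 (SE 0.37, adjusted p = 6.19e-10). The brightest probe set of Hba-a1 and that of Prdx2 were not called, so no direction is given for either gene. On the Y chromosome, 2 of 11 measured genes were called, both higher in C3H/HeJ, beside 1.28% of all genes called. Kdm5d, a histone demethylase, was at 5.58 and 5.58 in C3H/HeJ and 3.95, 4.19 and 4.51 in C57BL/6J, a difference of 1.36 (SE 0.28, adjusted p = 0.00143). Uty, its neighbour in the male-specific region, was at 5.09 and 4.94 in C3H/HeJ and 3.79, 3.78 and 4.11 in C57BL/6J, a difference of 1.12 (SE 0.25, adjusted p = 0.00408). The other Uty probe set was higher by 1.31 (adjusted p = 0.000502). Further Kdm5d probe sets were higher by 0.43 (adjusted p = 0.354) and 0.21 (adjusted p = 0.551) and were not called. The call on Kdm5d was lost without C3H/HeJ replicate 1 (adjusted p = 0.0568) or C3H/HeJ replicate 2 (adjusted p = 0.0635), and that on Uty without C3H/HeJ replicate 1 (adjusted p = 0.153) or C3H/HeJ replicate 2 (adjusted p = 0.0683). These genes were chosen after their values were seen.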
